A study of Mus musculus with 16 samples.

Results

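The transcripts of the phase II conjugation enzymes, the glutathione S-transferases (GST), UDP-glucuronosyltransferases (UGT) and cytosolic sulfotransferases (SULT), were followed across liver and epididymal white adipose tissue (eWAT). Members were chosen by symbol alone, as every probe of the non-normalized table whose gene symbol begins with Gst, a class letter and a number, with Ugt1 to Ugt3, or with Sult1 to Sult5. This took 66 of the 25697 probes and 48 of the 16593 named genes: 29 probes for 21 GST genes, 20 probes for 15 UGT genes and 17 probes for 12 SULT genes. A gene counted as measured in a tissue where both arrays of some group detected its probe (detection p under 0.05), and 34 members met this in liver, 36 in eWAT and 39 in at least 1 of them. The remaining 9 genes did not: Sult1b1, Sult1c1, Sult2a6, Sult3a1, Ugt2a1, Ugt2b5, Ugt2b37 and Ugt2b38 had no detected signal on any of the 16 arrays, and Ugt2a2 had one on 1 liver array.

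The RNA came from mice that were Fgf1 null, which are labelled as lacking the gene for the secreted growth factor FGF1, or wild-type. All were 24 weeks old and had eaten a high-fat diet (HFD) or normal chow for 16 weeks. Liver and eWAT of Fgf1 null mice on HFD, Fgf1 null mice on chow, wild-type mice on HFD and wild-type mice on chow make 8 groups. Each group has 2 arrays, which are technical replicates per the labels, so a group stands for 1 RNA sample, and the labels do not say whether that sample was 1 mouse or a pool. Levels are log2 intensities after background correction and quantile normalization, within a tissue unless stated, and levels of different genes are not compared because probes differ in brightness.

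These enzymes make lipophilic compounds soluble enough to leave the body. GSTs attach the tripeptide glutathione to electrophiles, UGTs attach a sugar, usually glucuronic acid, to hydroxyl and other groups of bilirubin, steroids and drugs, and SULTs attach sulfate from the donor PAPS to phenols, steroids and bile acids. The liver is the best known site of all 3 reactions, and many of the genes are controlled there by xenobiotic receptors such as CAR (Nr1i3) and by the oxidative stress factor NRF2. Conjugates then leave the cell through transporters of the Abcc family.

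The eWAT samples differed in their levels of cell type markers. Summed hepatocyte markers (linear normalized intensity) were 156854 and 163507 on the arrays of wild-type HFD eWAT against 1630 to 8774 on the other eWAT arrays. Both wild-type HFD arrays detected 11 of 14 markers, against 8 or 9 of 14 in the other eWAT samples. Of the defining markers F2 and Apoh were detected in wild-type HFD eWAT and in none of the other 3 eWAT samples, Tdo2 was undetected in all 4 though detected in liver, and the probes for Alb and Fgb were not detected on both arrays of any liver sample either. Summed epididymis and testis markers were 147136 and 153675 in wild-type chow eWAT against 1160 to 44913 elsewhere in eWAT. Exocrine pancreas markers summed to 470622 and 478969 in Fgf1 null HFD eWAT, to 73891 and 76006 in wild-type HFD eWAT, and to at most 1580 in the chow samples. Summed macrophage markers were 65012 and 66036 in Fgf1 null chow eWAT against 3761 to 19454 on the other eWAT arrays. Adipocyte markers summed to 100559 and 107762 in wild-type chow eWAT and to 185896 to 236175 in the other 3 eWAT samples, and hepatocyte markers in all 4 livers (442286 to 474828). In tissue RNA, fewer cells of a type and less RNA per cell cannot be told apart. Fgf1 was different by -1.43 ± 0.13 (log2 difference ± SE) between Fgf1 null and wild-type liver on HFD, and by -0.95 ± 0.13, not called, on chow. In eWAT it differed by -1.50 ± 0.17 on HFD and by 0.67 ± 0.17, not called, on chow, where the sample labelled Fgf1 null was the higher.

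Liver was compared with eWAT over 4 RNA samples per tissue, matched by diet and genotype, with all 16 arrays normalized together. A gene was called different at a Benjamini-Hochberg adjusted p under 0.05 (limma, over all genes tested) and at least 2-fold. Of the 39 members, 24 (61.5%) were called, 21 higher and 3 lower in liver, against 29.5% of all genes tested (13.2% higher, 16.3% lower). The median member difference was 1.87 (log2, liver minus eWAT), against -0.13 over all genes. The families differed in makeup: 10 of 10 measured UGT genes were higher in liver with a median of 5.18, whereas 8 of 21 GST genes were higher and 2 lower (median 1.1), and 3 of 8 SULT genes were higher and 1 lower (median 0.09). Ugt1a2 was measured through liver alone and Sult2b1 through eWAT alone, so their calls add no support to these counts. Ugt2a3, Ugt2b1, Ugt2b34 and Ugt2b35 were detected on 2 of 8 eWAT arrays and Ugt3a1 on 3. The UGT median therefore depends on the background correction and is not a measured size.

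Ugt2b36, a member of the steroid and drug glucuronidating UGT2B group, had 14.49, 14.36, 14.22 and 14.51 in the livers of Fgf1 null HFD, Fgf1 null chow, wild-type HFD and wild-type chow mice, against 5.32, 4.96, 11.69 and 5.44 in eWAT of the same groups. The 4 livers lay between 14.22 and 14.51, and wild-type HFD eWAT stood far above the other eWAT samples without reaching liver. The difference was 7.54 ± 1.25 (log2 ± SE, adjusted p = 0.0079, limma). Ugt3a2 and Ugt3a1, whose human counterparts use sugars other than glucuronic acid, were higher by 6.92 ± 1.01 and 6.67 ± 0.88. Ugt2b1, Ugt2b35, Ugt2a3 and Ugt2b34 were higher by 4.73 to 5.89, and each was detected in eWAT only in the wild-type HFD sample. The differences of these genes and of Ugt3a1 are fitted values that depend on the background correction. The UGT1 genes, Ugt1a10, Ugt1a6a and Ugt1a2, had smaller differences, of 2.53 ± 0.36, 1.97 ± 0.25 and 2.91 ± 0.33. Ugt1a2 was detected on 0 of 8 eWAT arrays, which makes it at least 5.06-fold higher in liver. UGT1 transcripts share their last exons, and the files do not place the probes, so the UGT1 probes may read each other's transcripts.

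Among the SULT genes, Sult2a8, which sulfates bile acids in mouse liver, had 11.49, 12.22, 12.28 and 12.20 in the same order of livers, against 4.44, 4.50, 8.13 and 4.48 in eWAT. Wild-type HFD was the single eWAT sample in which Sult2a8 was detected, and the difference between tissues was 6.66 ± 0.65 (adjusted p = 0.0017, limma). The size of this difference also depends on the background correction. Sult1d1, a catecholamine sulfotransferase, was higher in liver by 4.30 ± 0.32 and Sult5a1, whose substrate is not known, by 1.22 ± 0.33. The Sult5a1 samples overlapped, with a lowest liver level of 7.16 and a highest eWAT level of 7.43, and its call was lost without the wild-type HFD pair (1.06, adjusted p = 0.112, limma). Sult2b1, a cholesterol sulfotransferase, was the SULT lower in liver, where it was detected on 0 of 8 arrays, which makes it at least 2.04-fold lower. Sult1a1, the main phenol sulfotransferase, differed by 0.79 ± 0.32 and was not called.

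GST genes lay on either side. Gstp3 (3.95 ± 0.23) and Gstp1 (2.56 ± 0.23) of the pi class, Gsta2, Gsta3 and Gsta4 of the alpha class (1.64 to 2.77), Gstt1 of the theta class, Gstk1, the kappa enzyme of mitochondria and peroxisomes, and Gstm4 were higher in liver. The mu class genes Gstm5 and Gstm2 were lower: Gstm5 had 8.92, 8.92, 9.07 and 8.63 in liver against 11.83, 11.77, 11.01 and 13.59 in eWAT, and Gstm2 had 12.63, 11.52, 11.86 and 11.87 against 14.37, 14.48, 14.06 and 15.49. In neither did a liver sample overlap an eWAT sample, and the differences were -3.16 ± 0.50 and -2.63 ± 0.35. Gstz1, which isomerizes maleylacetoacetate in tyrosine breakdown, and Gstm1 differed by 0.54 ± 0.41 and 0.12 ± 0.26 and were not called. For liver against eWAT, leaving out 1 diet-genotype pair at a time, an alternative chosen after seeing the data, gave 22 to 26 calls, and 23 (20 higher, 3 lower) without the wild-type HFD pair. Gsto2 and Gstt4, which had their highest levels in wild-type chow eWAT, were not called between tissues.

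**Figure D1:**
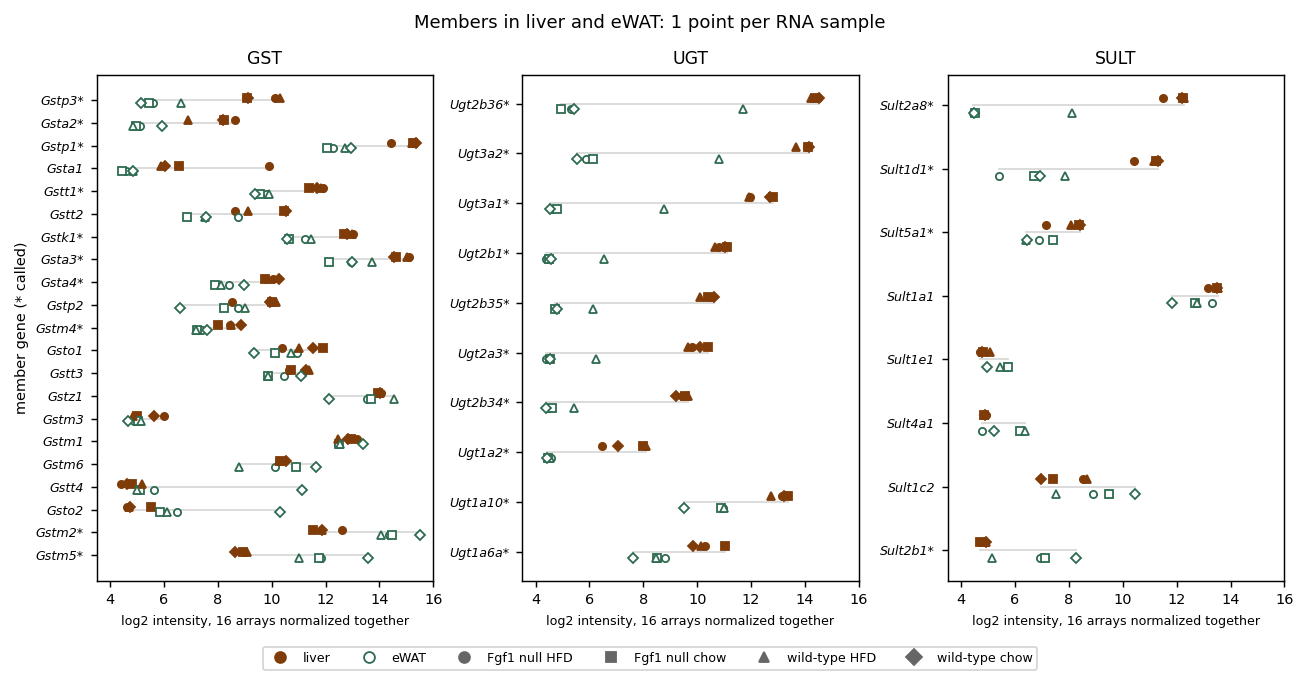
Log2 intensity (horizontal axis, 16 arrays normalized together) of the 39 measured members in liver (filled) and eWAT (open), 1 point per RNA sample with marker shape for the group, ordered within family by the difference between tissues. All 10 UGT genes lie higher in liver, and for Ugt2b36, Ugt3a2, Ugt3a1 and Sult2a8 the eWAT point nearest to liver is wild-type HFD.

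Promoter windows from RefSeq (GRCm38.p6, 250 bases before to 50 after a gene's start) matched 44 of the 48 members, with 54 windows, and Gsta4, Gstt2, Sult4a1 and Ugt3a2 were not matched. They were searched on both strands for GTTAAT, the conserved letters of the site of the hepatocyte factor HNF1, for TGACNNNGC, the core of the antioxidant response element to which NRF2 binds, and for GCGTG, the core to which the aryl hydrocarbon receptor binds. GTTAAT was in 8 member windows (14.8%) against 7.10% of all 32851 windows, TGACNNNGC in 2 (3.70%, Gsta3 and Gstm5) against 12.4%, and GCGTG in 11 (20.4%) against 32.4%. A match of letters is a description and not a bound site.

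The 250 bases before the start are printed for 3 genes that were higher in liver and hold GTTAAT or its reverse complement ATTAAC: Ugt2a3 (chr5:87337196-87337445, minus strand), Ugt3a1 (chr15:9279579-9279828, plus strand) and Sult1d1 (chr5:87569007-87569256, minus strand). Capitals mark these letters, and CACGC, the reverse complement of GCGTG, in Sult1d1. Ugt2a3 holds GTTAAT at 2 neighbouring places. The start used for Ugt3a1 lies inside the RefSeq gene bounds (chr15:9279822-9315038), so its last printed bases lie inside them.
Ugt2a3: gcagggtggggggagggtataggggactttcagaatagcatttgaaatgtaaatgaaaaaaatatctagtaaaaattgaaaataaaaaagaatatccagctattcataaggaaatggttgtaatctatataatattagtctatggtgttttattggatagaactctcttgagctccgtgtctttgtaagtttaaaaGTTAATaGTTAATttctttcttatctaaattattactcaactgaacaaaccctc
Ugt3a1: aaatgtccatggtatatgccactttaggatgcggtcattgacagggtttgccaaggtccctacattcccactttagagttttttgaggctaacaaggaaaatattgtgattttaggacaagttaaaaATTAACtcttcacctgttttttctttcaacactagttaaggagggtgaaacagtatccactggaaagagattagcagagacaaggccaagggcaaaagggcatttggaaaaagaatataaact
Sult1d1: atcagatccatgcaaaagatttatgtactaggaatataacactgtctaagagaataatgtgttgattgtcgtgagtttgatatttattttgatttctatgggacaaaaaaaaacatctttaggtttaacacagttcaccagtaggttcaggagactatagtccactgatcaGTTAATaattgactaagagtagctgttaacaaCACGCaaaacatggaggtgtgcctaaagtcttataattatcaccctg

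Within liver, differences between groups rest on 2 arrays of 1 RNA sample per group, so a call states that 2 RNA samples differed beyond the spread between arrays and is no test over mice. Of the 34 members measured in liver, 10 were called in at least 1 of the 4 comparisons and 24 in none. HFD against chow gave 9 called members in Fgf1 null liver (4 higher, 5 lower; 26.5% against a background of 8.58% of genes, 5.88% higher and 2.7% lower; 5 with the authors' normalized values) and 4 in wild-type liver (2 higher, 2 lower; 11.8% against 5.72%, 3.24% higher and 2.48% lower). Fgf1 null against wild-type gave 5 called members on HFD (2 higher, 3 lower; 14.7% against 4.96%, 3.34% higher and 1.62% lower; 3 without background correction) and 0 on chow, where 1.79% of all genes were called (1.0% higher, 0.787% lower). The diet-by-genotype difference was called for 6 members (3 higher, 3 lower; 17.6% against 7.9%, 4.53% higher and 3.37% lower). On chow the adjusted p was under 0.05 for 3 members at under 2-fold, Gsta4, Gstm4 and Gstt3. By family, 7 of 19 GST, 2 of 5 SULT and 1 of 10 UGT genes were called at least once, and of the UGT2 and UGT3 genes 0 were called in these limma comparisons. The share of all liver genes called at least once is not given here, so these counts and the 10 of 34 have no background.

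Gsta1, an alpha class GST of the kind that is inducible in rodent liver, had the largest difference. Its level was 9.22 and 9.35 on the arrays of Fgf1 null HFD liver, 5.65 and 5.77 in Fgf1 null chow, 5.29 and 5.17 in wild-type HFD and 5.96 and 4.91 in wild-type chow. Only the Fgf1 null HFD liver was far above background; in each wild-type liver 1 of the 2 arrays gave a detected signal. The log2 difference was 4.06 ± 0.30 for genotype on HFD (adjusted p = 0.00016, limma) and 3.58 ± 0.30 for diet in Fgf1 null liver. Its neighbour Gsta2 had 7.69 and 8.11 in Fgf1 null HFD liver, 7.37 and 7.54 in Fgf1 null chow, 5.71 and 6.34 in wild-type HFD and 7.65 and 7.20 in wild-type chow. The low group here was wild-type HFD. Gsta2 was higher by 1.87 ± 0.25 for genotype on HFD and fell for diet in wild-type liver (-1.40 ± 0.25), without a diet call in Fgf1 null liver (0.44 ± 0.25). Gsta3 and Gsta4, which detoxify aflatoxin epoxide in mice and the lipid aldehyde hydroxynonenal, were not called in liver by the brightest probe, with differences of -0.59 to 0.50. A second, dimmer Gsta3 probe was called higher in wild-type HFD than chow liver (1.25 ± 0.18).

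The RefSeq windows of Gsta1 and Gsta2 share 232 of 300 bases (77.3%), and their probes may read both transcripts, which the files cannot settle. Both windows hold GCGTG close to the start used for the window. For Gsta2 that start lies inside the RefSeq gene bounds (chr9:78331018-78347192). The last of its bases printed below, GCGTG among them, therefore lie inside those bounds. The 250 bases before the start are shown because the 2 genes differ in the liver samples that were high: Gsta1 (chr9:78230419-78230668, plus strand) and Gsta2 (chr9:78347146-78347395, minus strand). Capitals mark GCGTG in Gsta2; in Gsta1 these letters run across the start, and the printed bases end inside them.
Gsta1: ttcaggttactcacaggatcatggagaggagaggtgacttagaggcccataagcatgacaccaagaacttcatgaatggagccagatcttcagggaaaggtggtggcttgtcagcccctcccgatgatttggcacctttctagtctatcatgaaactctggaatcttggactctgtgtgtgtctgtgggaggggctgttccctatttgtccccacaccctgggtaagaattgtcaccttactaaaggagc
Gsta2: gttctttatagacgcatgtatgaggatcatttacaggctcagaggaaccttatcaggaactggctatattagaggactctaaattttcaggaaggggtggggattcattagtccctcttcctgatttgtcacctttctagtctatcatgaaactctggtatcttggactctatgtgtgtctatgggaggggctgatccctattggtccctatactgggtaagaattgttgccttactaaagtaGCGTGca

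The pi class divided. Gstp2 had 7.82 and 7.80 in Fgf1 null HFD liver, 9.43 and 9.38 in Fgf1 null chow, 9.38 and 9.82 in wild-type HFD and 9.14 and 9.54 in wild-type chow. Fgf1 null HFD liver was below the other 3 without overlap, with differences of -1.79 ± 0.19 for genotype on HFD and -1.60 ± 0.19 for diet in Fgf1 null liver. Gstp1, whose window is 81.0% identical to that of Gstp2, differed in the same comparisons by -0.77 ± 0.13 and -0.80 ± 0.13, under 2-fold. However, 2 dimmer Gstp1 probes were called lower for genotype on HFD (-1.04 and -1.14), the latter also for diet in Fgf1 null liver (-1.07). Gstp3 followed diet instead: it had 9.64 and 9.48 in Fgf1 null HFD liver against 8.45 and 8.33 on chow, and 9.57 and 9.99 in wild-type HFD liver against 8.47 and 8.43 on chow. It rose in Fgf1 null (1.17 ± 0.16) and wild-type liver (1.33 ± 0.16).

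Gstt2, a theta class GST, fell on HFD in both genotypes. It had 8.25 and 7.61 in Fgf1 null HFD liver against 9.70 and 10.20 on chow (-2.02 ± 0.24), and 8.52 and 8.35 in wild-type HFD liver against 10.04 and 9.97 on chow (-1.57 ± 0.24). The HFD arrays lay below the chow arrays with no overlap in either genotype. Gsto1, an omega class GST that reduces dehydroascorbate, had 9.93 and 9.78 in Fgf1 null HFD liver, 11.65 and 11.59 in Fgf1 null chow, 10.69 and 10.49 in wild-type HFD and 11.21 and 11.09 in wild-type chow. It fell by 1.76 ± 0.13 with HFD in Fgf1 null liver and differed by -0.56 ± 0.13 in wild-type liver, which is under 2-fold. Gstm2, a mu class GST, rose by 1.19 ± 0.12 with HFD in Fgf1 null liver, where it had 12.29 and 12.46 against 11.24 and 11.12 on chow, and was not called in wild-type liver (-0.18 ± 0.12). A dimmer Gstm2 probe was also called higher with HFD in Fgf1 null liver (1.25 ± 0.12), and the dimmest was not called (0.82 ± 0.16). Gstk1, Gstm1, Gstm3, Gstm4, Gstm5, Gstm6, Gstt1, Gstt3 and Gstz1 were called in none of the 4 liver comparisons.

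**Figure D2:**
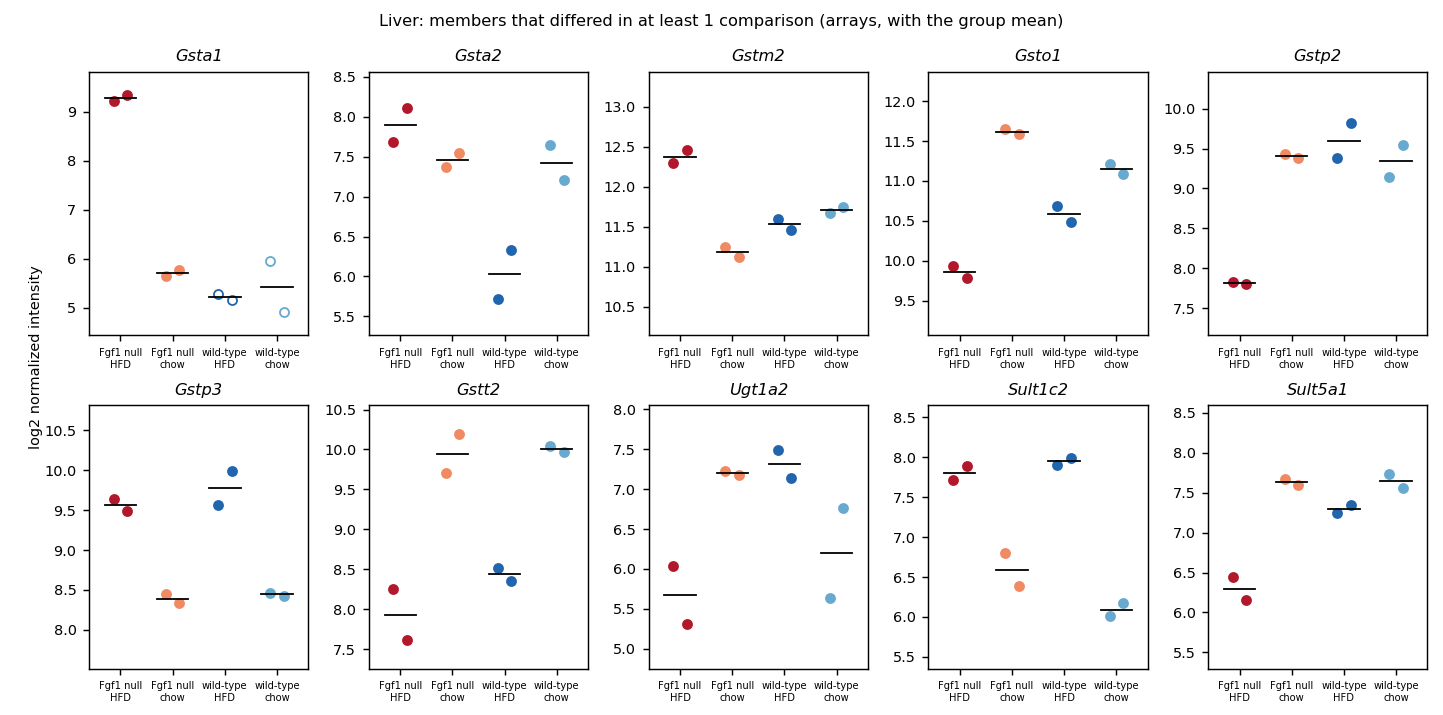
Log2 normalized intensity of the 10 members called in at least 1 liver comparison, with the 2 arrays of each group as points and the group mean as a bar; open points belong to groups in which fewer than 2 arrays detected the probe. Gstp3, Gstt2 and Sult1c2 separate HFD from chow in both genotypes, whereas Gsta1, Gstp2 and Sult5a1 have Fgf1 null HFD apart from the other groups.

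Of the 10 UGT genes measured in liver, 9 were called in none of the 4 comparisons. Ugt1a2 was the 1 UGT called: it had 6.03 and 5.31 in Fgf1 null HFD liver, 7.22 and 7.18 in Fgf1 null chow, 7.49 and 7.14 in wild-type HFD and 5.64 and 6.77 in wild-type chow. Its differences were -1.65 ± 0.37 for genotype on HFD (adjusted p = 0.024, limma) and -1.53 ± 0.37 for diet in Fgf1 null liver (adjusted p = 0.020), and the 2 arrays of wild-type chow lay farther apart than those of any other group. Leaving out single arrays of Fgf1 null HFD, Fgf1 null chow or wild-type HFD liver lost these calls, at adjusted p up to 0.142. Ugt1a6a, a phenol UGT, differed by 1.35 ± 0.54 for genotype on chow and was not called, with 10.69 and 10.53 in Fgf1 null chow liver against 8.24 and 10.28 in wild-type chow. Ugt3a1 was lower on HFD by similar amounts in both genotypes, -0.93 ± 0.14 in Fgf1 null and -0.87 ± 0.14 in wild-type liver, each under 2-fold. The UGT median for diet was -0.28 in Fgf1 null and -0.45 in wild-type liver, against 0.020 and 0.0036 over all genes.

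Among the 5 SULT genes measured in liver, Sult1c2, a sulfotransferase of phenols, rose on HFD in both genotypes. It had 7.71 and 7.89 in Fgf1 null HFD liver against 6.80 and 6.38 on chow (1.21 ± 0.16), and 7.91 and 7.99 in wild-type HFD liver against 6.01 and 6.17 on chow (1.86 ± 0.16). Sult5a1 was low in Fgf1 null HFD liver, at 6.44 and 6.16, against 7.67 and 7.60 in Fgf1 null chow, 7.25 and 7.35 in wild-type HFD and 7.73 and 7.56 in wild-type chow. It fell by 1.34 ± 0.14 for diet in Fgf1 null liver and differed by -1.0 ± 0.14 for genotype on HFD, a call lost without 1 array of wild-type HFD (-0.95) or Fgf1 null HFD liver (-0.86). A dimmer Sult5a1 probe was called for diet in Fgf1 null liver (-1.31 ± 0.30) and not for genotype on HFD (-0.82 ± 0.30). Sult1d1 and Sult2a8 differed in the same direction by under 2-fold, by -0.96 ± 0.14 and -0.84 ± 0.15 for diet in Fgf1 null liver. Sult1a1 was called in none.

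The 2 diet comparisons in liver share no sample. Gstp3, Gstt2 and Sult1c2 were called in both, in the same direction, and 16 of 34 members had diet differences of the same sign in both genotypes. The share of all genes is given for neither count, so they are not a result about members in particular. In a fit to the 4 RNA samples of liver (limma, diet and genotype as terms, 1 residual degree of freedom) 0 genes passed an adjusted p under 0.05 at 2-fold, members or not. The only spread in this fit is the diet-by-genotype difference of the 4 samples, shrunk toward that of all genes. Its p-values therefore do not measure variation among mice. At an unadjusted p under 0.05 for diet, 7 of 34 members (20.6%) stood against 13.2% of all genes: Gstt2 (-1.79 ± 0.22), Gstp3 (1.25 ± 0.20), Sult1c2 (1.53 ± 0.25), Ugt3a1 (-0.90 ± 0.20), Gsto1, Ugt2a3 and Sult5a1. The smallest adjusted p among members in this limma fit was 0.222, for Gstt2. For genotype 1 member passed the unadjusted p, Gstt3 (-0.75 ± 0.20), which is 2.94% against 3.40% of all genes.

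Other genes of conjugation were tested in the same liver fits. Of 7 measured genes of glutathione supply 0 were called for diet in Fgf1 null liver and 1, Chac1, which degrades glutathione, in wild-type liver (1.70). Of 4 genes of UDP-glucuronate supply, none was called in these 4 limma comparisons, and of 6 genes of PAPS supply and sulfate handling Suox fell on HFD in Fgf1 null liver (-1.0) and Slc26a1 differed by -1.12 for genotype on HFD. Mgst3, a microsomal GST outside the symbol rule, rose on HFD in Fgf1 null liver (1.43 ± 0.13). Ephx1, the microsomal epoxide hydrolase, fell on HFD in wild-type liver (-1.57 ± 0.12) and differed by -0.53 ± 0.12 in Fgf1 null liver. Abcc3, which exports glucuronides to blood, fell on HFD in wild-type liver (-2.57 ± 0.17), with a difference of -0.68 ± 0.17 in Fgf1 null liver, and the uptake carrier Slco1a4 fell in both (-2.28 ± 0.20 in Fgf1 null, -1.11 ± 0.20 in wild-type).

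Of the xenobiotic receptors and regulators Nr1i3, which encodes CAR, was the single gene of 10 called: it fell on HFD in Fgf1 null (-1.46 ± 0.13) and in wild-type liver (-2.37 ± 0.13). Of 9 phase I P450 genes that such receptors target, 2 rose (Cyp2b9 and Cyp2b13) and 3 fell (Cyp2b10, Cyp3a11 and Cyp4a14) on HFD in Fgf1 null liver, with a list median of -0.68. In wild-type liver 1 rose (Cyp2b9) and the same 3 fell, with a median of 0.07; Cyp3a11 differed by -1.93 ± 0.13 in Fgf1 null and -4.47 ± 0.13 in wild-type liver. Of 12 NRF2 target genes outside the 3 families, 4 rose and 0 fell for diet in Fgf1 null liver (Hmox1 1.64, Osgin1 1.27, Cbr3 1.23 and Me1 1.08; median 0.16), and 1 rose and 1 fell in wild-type liver (Me1 and Ephx1; median -0.35). The Fgf1 null HFD liver also had the highest summed macrophage markers, 5882 and 6322 against 1397 to 2786 in the other livers, with Gpnmb higher by 4.51 ± 0.22 and Lyz2 by 2.35 ± 0.19 for genotype on HFD. Its summed adipocyte markers were 7168 and 7174 against 1681 to 4635, with the defining markers Adipoq and Plin1 undetected. Their part in the Gsta1, Gstp2 and Sult5a1 differences of that sample was not tested.

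Calls in eWAT were made in the same way over its 36 measured members. For diet in wild-type eWAT 23 of 36 members were called (14 higher, 9 lower; 63.9% against a background of 33.3%, 16.6% higher and 16.7% lower), and for diet in Fgf1 null eWAT 3 (1 higher, 2 lower; 8.33% against 10.2%, 4.18% higher and 6.02% lower; 1 without background correction and 1 with the authors' normalized values). For genotype on HFD 15 were called (4 higher, 11 lower; 41.7% against 11.3%, 5.27% higher and 6.01% lower; 9 without background correction and 7 with the authors' normalized values) and for genotype on chow 13 (5 higher, 8 lower; 36.1% against 27.3%, 13.7% higher and 13.6% lower; 8 and 7 under the same alternatives). The diet-by-genotype difference was called for 25 (11 higher, 14 lower; 69.4% against 39.5%, 19.3% higher and 20.2% lower). Comparisons that share the wild-type HFD or wild-type chow sample are not independent. Over the 4 RNA samples of eWAT 0 members passed an unadjusted p under 0.05 for diet or for genotype in limma, against 197 and 73 of 11935 genes. In this fit too the only spread is the diet-by-genotype difference.

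The UGT2 and UGT3 genes stood out in a single eWAT sample. Ugt2b36 had 5.34 and 5.88 in Fgf1 null HFD, 5.45 and 4.78 in Fgf1 null chow, 11.99 and 11.94 in wild-type HFD and 5.90 and 5.66 in wild-type chow. Ugt3a2 had 5.99 and 6.61 in Fgf1 null HFD, 6.50 and 6.72 in Fgf1 null chow, 11.11 and 11.18 in wild-type HFD and 5.90 and 5.90 in wild-type chow. For these genes the 2 wild-type HFD arrays stood above all 6 others with no overlap, and the difference for diet in wild-type eWAT was 6.19 ± 0.25 and 5.25 ± 0.20. Ugt3a1 was at least 17.9-fold, Ugt2b1 at least 4.03-fold, Ugt2a3 at least 3.24-fold, Ugt2b35 at least 2.98-fold and Ugt2b34 at least 1.60-fold higher in wild-type HFD than wild-type chow eWAT, where the probe was undetected. Ugt1a10 was also called, at 1.38 ± 0.13. Ugt2a3, Ugt2b1, Ugt2b34, Ugt2b35, Ugt3a1 and Sult2a8 were detected on both arrays in wild-type HFD eWAT and in no other eWAT group, so they entered the test through the group where they were high, and their calls add no support to the count. Gsta2 entered in the same way through wild-type chow. Ugt1a6a, the remaining UGT measured in eWAT, was not called by its brightest probe (0.82 ± 0.22 for diet in wild-type eWAT), while its 2 dimmer probes were called, one for diet in wild-type eWAT (1.38 ± 0.12) and genotype on chow (1.37 ± 0.12) and the other for diet in Fgf1 null eWAT (1.62 ± 0.22).

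The UGT2 and UGT3 genes made up the 7 UGT genes called lower for genotype on HFD in eWAT, a comparison that shares the wild-type HFD sample. Sult2a8 had the same profile: 4.51 and 4.41 in Fgf1 null HFD, 4.55 and 4.50 in Fgf1 null chow, 8.70 and 8.55 in wild-type HFD and 4.42 and 4.57 in wild-type chow eWAT. It was at least 11.8-fold higher for diet in wild-type eWAT and at least 9.63-fold lower for genotype on HFD. This sample is the one with hepatocyte markers. The members detected in wild-type HFD eWAT and on no other eWAT array were Sult2a8, Ugt2a3, Ugt2b1, Ugt2b34 and Ugt2b35, at 5.28% to 9.41% of their level in wild-type HFD liver. Ugt3a1, Ugt3a2 and Ugt2b36 stood at 11.0%, 13.6% and 17.4%. The hepatocyte markers ranged more widely, with Apoh at 5.84%, F2 at 9.22%, Hpx at 13.4% and Serpina1b at 62.5%, and both sets include genes chosen by where they were detected. In wild-type HFD liver the raw signal reached 69588 for Hpx and 62234 for Serpina1b, near the scanner limit. Such liver levels are compressed, so these percentages may be too high. Ttr, at 55.1%, reached 53021 there. The part of the hepatocyte markers in the UGT and Sult2a8 differences was not tested. Without the members at least 4-fold higher in liver, 12 of 21 were called for diet in wild-type eWAT and 4 of 21 for genotype on HFD, an alternative chosen after the values were seen. The members left out were picked from the comparison of liver with eWAT, which contains the wild-type HFD sample. The share of all genes after the same exclusion is not given, so these counts have no background.

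**Figure D3:**
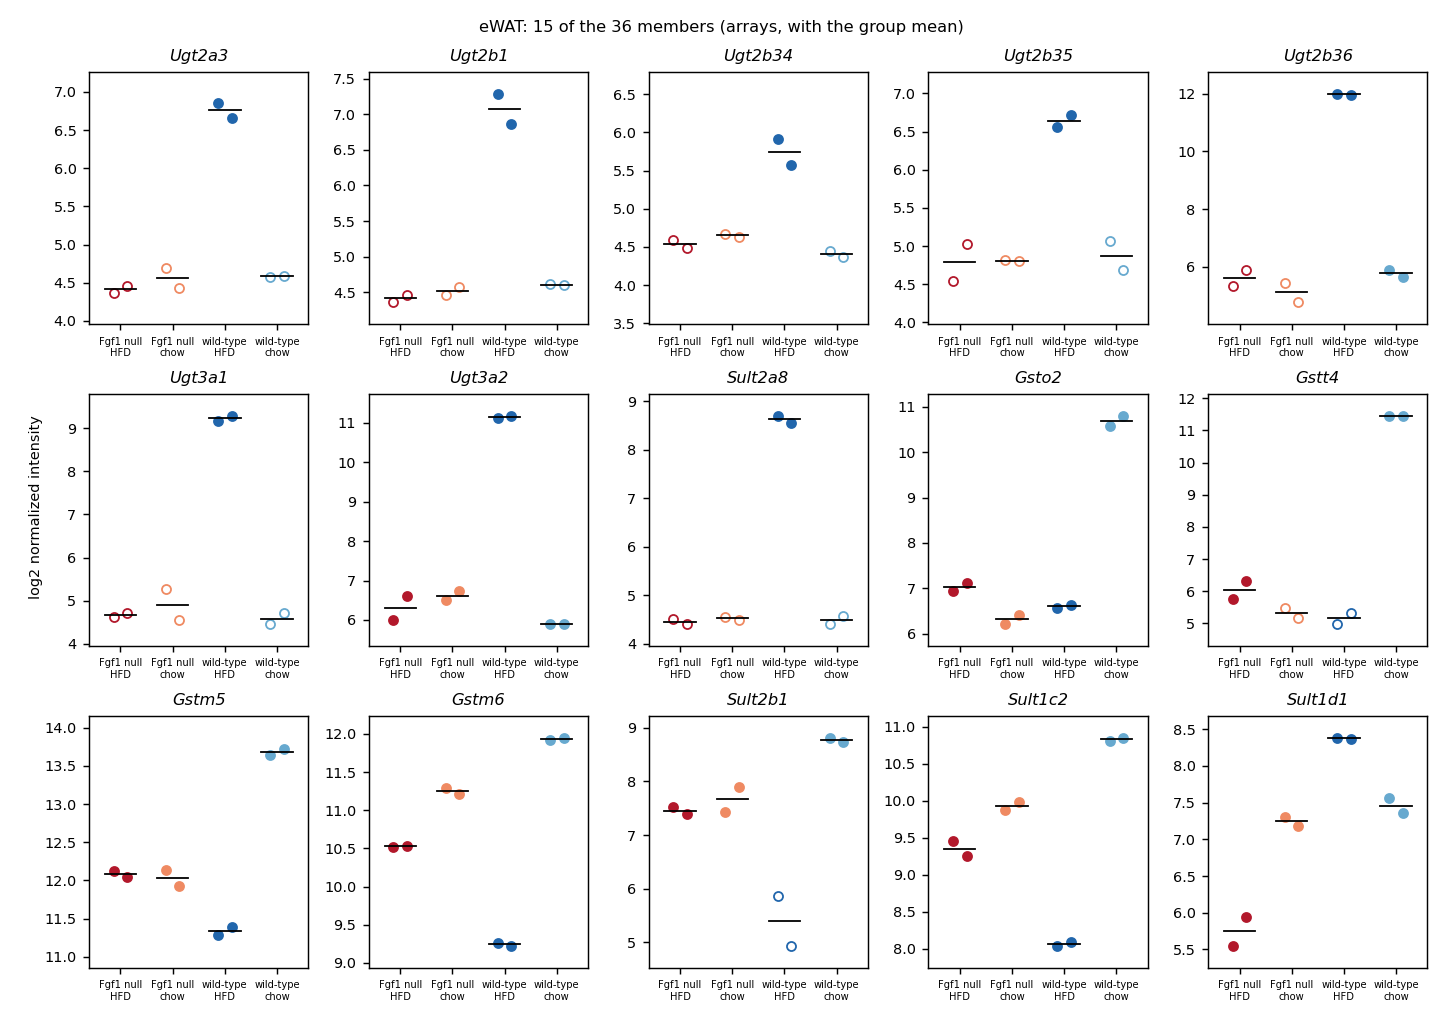
Log2 normalized intensity of 15 of the 36 members measured in eWAT, with the 2 arrays of each group as points and the group mean as a bar; open points belong to groups in which fewer than 2 arrays detected the probe. The 7 UGT genes and Sult2a8 stand out in wild-type HFD eWAT, and Gsto2, Gstt4 and Gstm5 in wild-type chow eWAT.

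Several GST genes were high in the wild-type chow sample instead. Gstt4, a theta class GST, had 5.76 and 6.32 in Fgf1 null HFD, 5.47 and 5.18 in Fgf1 null chow, 4.98 and 5.33 in wild-type HFD and 11.45 and 11.46 in wild-type chow eWAT. Gsto2, an omega class GST, had 6.94 and 7.11 in Fgf1 null HFD, 6.21 and 6.42 in Fgf1 null chow, 6.57 and 6.63 in wild-type HFD and 10.57 and 10.81 in wild-type chow eWAT. Both stood above all other eWAT arrays in wild-type chow with no overlap, and neither was detected on both arrays of any liver group. Gstt4 was at least 66.9-fold lower for diet in wild-type eWAT and differed by -6.13 ± 0.21 for genotype on chow; Gsto2 differed by -4.09 ± 0.14 and -4.38 ± 0.14. Gstm5 followed, with 13.65 and 13.73 in wild-type chow against 11.28 to 12.14 on the other 6 arrays (-2.35 ± 0.12 for diet in wild-type eWAT), and Gstm2 had 15.61 and 15.54 against 14.11 to 14.68 (-1.45 ± 0.12). Wild-type chow eWAT is the sample with the highest epididymis and testis markers, of which 9 of 11 were detected on both arrays and Lcn9 on none. Fgf1 null HFD and Fgf1 null chow eWAT also had 9 of 11 detected on both arrays, at lower summed levels. The part of these markers in the Gstt4, Gsto2 and mu class differences was not tested.

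Gstm6 (-2.69 ± 0.11), Gsta2 (at least 1.99-fold lower) and Gstt3 (-1.13 ± 0.13) also fell for diet in wild-type eWAT, and Gstp2 (2.35 ± 0.15), Gstz1 (2.29 ± 0.12), Gstp3 (1.77 ± 0.16) and Gsto1 (1.29 ± 0.14) rose. Gstp2 had 9.50 and 9.46 in wild-type HFD eWAT against 7.25 and 7.01 in wild-type chow, with 9.20 and 9.25 in Fgf1 null HFD and 8.89 and 8.55 in Fgf1 null chow. Gstz1 had 14.62 and 14.66 in wild-type HFD against 12.31 and 12.39 in wild-type chow, with 13.61 and 13.69 in Fgf1 null HFD and 13.87 and 13.70 in Fgf1 null chow. Wild-type chow was the low sample for both, and both were higher for genotype on chow (1.59 ± 0.15 and 1.44 ± 0.12). Gstt2 was the GST called for diet in Fgf1 null eWAT, at 9.18 and 9.23 on HFD against 7.25 and 7.54 on chow (1.81 ± 0.14). This is the opposite sign to liver, where Gstt2 was lower on HFD. However, Fgf1 null HFD eWAT is also the sample with the highest pancreas markers, and their part in the Gstt2 difference was not tested. Gstk1, Gstm1, Gstm4, Gstp1, Gstt1 and Gsta3 were not called in any of the 4 eWAT comparisons by the brightest probe. A dimmer Gsta3 probe was called higher for diet in wild-type eWAT (2.22 ± 0.17) and lower for genotype on HFD (-1.31 ± 0.17).

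Of the SULT genes other than Sult2a8, Sult1c2 had 9.45 and 9.25 in Fgf1 null HFD, 9.87 and 9.99 in Fgf1 null chow, 8.04 and 8.09 in wild-type HFD and 10.81 and 10.85 in wild-type chow. It fell by 2.77 ± 0.12 for diet in wild-type eWAT, the opposite sign to liver. Sult2b1 had 7.52 and 7.40 in Fgf1 null HFD, 7.44 and 7.89 in Fgf1 null chow, 5.86 and 4.93 in wild-type HFD and 8.81 and 8.73 in wild-type chow. It fell by 3.38 ± 0.28 for diet in wild-type eWAT, with a detected signal on 1 of the 2 wild-type HFD arrays. Its dimmer probes were also called, at -1.12 ± 0.21 and -1.95 ± 0.30. Sult1c2 and Sult2b1 were highest in wild-type chow eWAT, the sample with the highest epididymis and testis markers. The part of those markers in the Sult1c2 and Sult2b1 differences was not tested. Sult1d1 was lowest in Fgf1 null HFD eWAT, at 5.55 and 5.95 against 7.30 and 7.18 in Fgf1 null chow (-1.50 ± 0.16), 8.38 and 8.37 in wild-type HFD (-2.63 ± 0.16) and 7.56 and 7.36 in wild-type chow. Sult4a1, a brain-type sulfotransferase, was undetected in Fgf1 null HFD eWAT and detected in the other 3 samples, which makes it at least 2.52-fold lower for diet in Fgf1 null eWAT. It was called in the opposite direction for diet in wild-type eWAT (1.41). Sult4a1 was also called higher for genotype on chow (1.23) and lower for genotype on HFD. Sult1e1, the estrogen sulfotransferase, was higher in Fgf1 null than wild-type chow eWAT (1.06 ± 0.21), near background. Fgf1 null HFD eWAT is the sample with the highest pancreas markers, of which 11 of 11 were detected there and in wild-type HFD eWAT. The part of the pancreas markers in the Sult1d1 and Sult4a1 values of Fgf1 null HFD eWAT was not tested. Macrophage markers moved as well: 6 of 7 rose for genotype on chow (median 4.0) and 6 fell for diet in Fgf1 null eWAT (median -2.0). Adipocyte markers rose in 8 of 11 for diet in wild-type eWAT (median 1.86) and in 6 of 11 for genotype on chow (median 1.07). The part of these in the member differences was not tested. Sult1a1 and Sult5a1 were not called in any of the 4 eWAT comparisons.

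**Figure D4:**
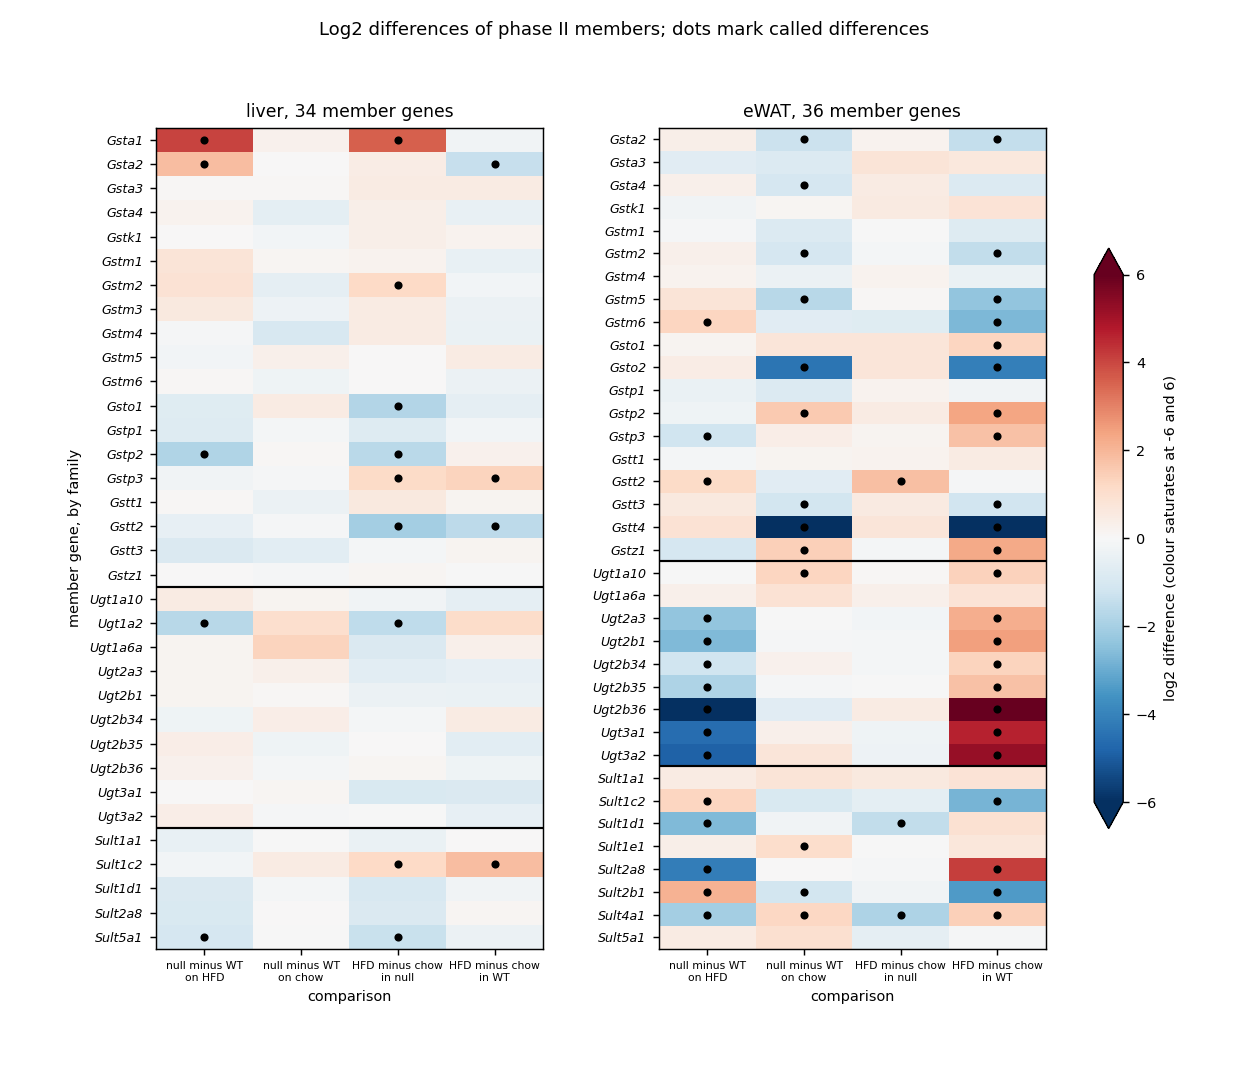
Log2 differences (colour, red higher and blue lower in the first-named group) of each measured member in the 4 comparisons of liver and of eWAT, with black dots on called differences. Liver calls lie in Gst and Sult rows and in 1 Ugt row, and the eWAT calls for diet in wild-type and genotype on HFD run through the Ugt2 and Ugt3 rows with opposite signs.

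Members could be set side by side by their RefSeq places in GRCm38.p6. There 10 Ugt2 members lie together on chromosome 5 (86889770 to 87490871), followed by Sult1b1, Sult1d1 and Sult1e1 (87513327 to 87591611). Of these 10 Ugt2 genes, Ugt2a3, Ugt2b1, Ugt2b34, Ugt2b35 and Ugt2b36 were measured, all higher in liver, and the other 5 were not detected on both arrays of any group. Ugt3a1 and Ugt3a2 also lie together, with differences of 6.67 ± 0.88 and 6.92 ± 1.01 between liver and eWAT. The 4 theta class genes form a cluster with unlike values: for diet in wild-type eWAT Gstt4 fell, Gstt3 fell by 1.13 ± 0.13, Gstt1 differed by 0.49 ± 0.12 and Gstt2 by -0.05 ± 0.14. Gsto1 and Gsto2, which lie together, differed in sign in the same comparison (1.29 ± 0.14 and -4.09 ± 0.14).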

How the data were processed

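Total RNA was hybridized to 1-colour Illumina MouseRef-8 bead arrays and processed in GenomeStudio, per the submitters' processing notes. The deposited non-normalized table gives each probe's intensity on a linear scale and its detection p-value, both made by the authors; a second deposited table holds the authors' normalized intensity, used as an alternative. Probe symbols came from a 2016 platform annotation (23978 probes with 1 symbol), and the files name no genome build.

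In R 4.3.3, limma 3.58.1 (neqc, offset 16) corrected background and applied quantile normalization, within each tissue (8 arrays) or over all 16 arrays for liver against eWAT. Background correction with a small offset spreads dim probes, and probes above 60000 are compressed near the scanner limit (1 to 14 probes per array). Probes detected (p under 0.05) on both arrays of 1 group were kept, and each gene was read from its brightest kept probe. limma fitted a mean per group (8211 named genes and 683 unnamed probes in liver, 10995 and 940 in eWAT) with Benjamini-Hochberg adjustment over all of them; further fits used the mean of an RNA sample's arrays. The number of arrays limits the precision: the median SD between arrays of a group was 0.113 in liver and 0.104 in eWAT (log2). Where the lower group never detected a probe, its fold is a bound: the higher group's mean against, per array, the higher of the lowest detected signal and the probe's own value.

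Members and gene lists were chosen with earlier results of these data known. Named genes are the called members with arrays that do not overlap, in order of difference up to 10 each way, and up to 4 called genes of a list; members without calls are named to account for each one. Fits were tested on simulated data. Alternatives were background correction, normalization, filter, probe choice, replicate block and leaving out arrays.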

Additional observations from a re-analysis of the deposited data

Results flagged for a closer look

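The diet difference (HFD minus chow, log2) of a member was set against itself in the 2 genotypes, as Fgf1 null minus wild-type, in limma fits to the arrays of a tissue. It was called for 31 member values, at an adjusted p under 0.05 and 2-fold. Each rests on 4 RNA samples, 1 per group, so the spread is that between arrays, and the comparison contains the eWAT samples with markers of other tissues described above.

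In liver the diet difference was greater in Fgf1 null mice for Gsta1 (3.78), Gsta2 (1.84) and Gstm2 (1.37), and smaller or more negative for Gsto1 (-1.20), Gstp2 (-1.86) and Ugt1a2 (-2.64).

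In eWAT the GST values were 7.01 for Gstt4, 4.81 for Gsto2, 2.40 for Gstm5, 1.96 for Gstm6, 1.86 for Gstt2, 1.68 for Gstt3, 1.63 for Gsta2, 1.34 for Gstm2 and 1.31 for Gsta4, against -1.58 for Gstp3, -1.85 for Gstp2 and -2.42 for Gstz1. The called UGT values were negative: -1.31 for Ugt1a10, -1.45 for Ugt2b34, -1.79 for Ugt2b35, -2.33 for Ugt2a3, -2.58 for Ugt2b1, -4.89 for Ugt3a1, -5.56 for Ugt3a2 and -5.69 for Ugt2b36. The SULT values were 3.17 for Sult2b1 and 2.19 for Sult1c2, against -2.41 for Sult1d1, -3.27 for Sult4a1 and -4.20 for Sult2a8. The values of the UGT2 and UGT3 genes and of Sult2a8 rest on the wild-type HFD sample, and those of Gstt4, Gsto2 and Ugt1a10 on the wild-type chow sample. Sult2a8, Ugt2a3, Ugt2b1, Ugt2b34, Ugt2b35, Ugt3a1, Gstt4, Gsta2 and Sult4a1 were undetected in at least 1 of the 4 eWAT groups, so their values are fitted differences that depend on the background offset, not measured sizes; the part of the markers of other tissues in them was not tested.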

How the results depend on the processing

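Of 2097 values of called members under other settings, 1987 kept direction and call, 110 lost the call and 0 reversed. Among these, the fit to every probe was read only at probes that already stood for a gene, so its 127 kept calls do not check other probes. Within a tissue, 14 pairs of gene and comparison with several kept probes were called by the brightest. In 4 of them (Gstm2, Sult2b1 and Sult5a1) another probe was not called, and 9 pairs not called by the brightest were called by another probe. Without background correction called members numbered 1 for genotype on chow in liver, 3 for genotype on HFD in liver, 1 for diet in Fgf1 null eWAT, 8 for genotype on chow in eWAT and 9 for genotype on HFD in eWAT. With the authors' normalized values they numbered 5 for diet in Fgf1 null liver, 1 for diet in Fgf1 null eWAT, 7 for genotype on chow in eWAT and 7 for genotype on HFD in eWAT. With members at least 4-fold higher in liver left out, chosen after seeing the data, 21 members remained in the test, and 12 were called for diet in wild-type eWAT, 1 for diet in Fgf1 null eWAT, 4 for genotype on HFD in eWAT and 12 for diet by genotype in eWAT. For the counts with members left out, the share of all genes after the same exclusion is not given, so they have no background. The cause of the shifts under these settings was not tested, apart from the fewer members. Over all genes the calls for diet in Fgf1 null liver numbered 763, 332 without background correction and 368 with the authors' values, and for diet in wild-type eWAT 3969, 2429 and 2331. Median scaling moved the median of all genes by over 0.1 in several comparisons, to 0.26 for diet in wild-type liver and 0.30 for diet in wild-type eWAT, and the higher and lower calls were then 594 and 121 for diet in wild-type liver (288 and 221 by quantile normalization), 714 and 170 for diet in Fgf1 null liver (523 and 240), 119 and 47 for genotype on chow in liver (89 and 70), 382 and 907 for diet in Fgf1 null eWAT (499 and 718), 2452 and 1822 for diet in wild-type eWAT (1978 and 1991), 2136 and 1409 for genotype on chow in eWAT (1641 and 1622), 1959 and 3289 for diet by genotype in eWAT (2299 and 2414) and 1099 and 2686 for liver against eWAT (1611 and 1984); 12 member calls were lost and none reversed. Leaving out 1 array at a time gave 0 to 2 called members for genotype on chow in liver (1 without wild-type chow array 1, 2 without array 2), 3 to 5 for genotype on HFD in liver (3 without wild-type HFD array 2), 4 to 8 for diet by genotype in liver, 4 to 6 for diet in wild-type liver, 8 to 9 for diet in Fgf1 null liver, 9 to 13 for genotype on chow in eWAT and 24 to 25 for liver against eWAT; each lone array was assumed to vary like the other groups. Same-numbered arrays did not deviate together (r -0.068 to 0.051), so the numbers do not pair arrays. A replicate block left 4, 9, 0, 5 and 6 calls in liver and 23, 3, 13, 15 and 25 in eWAT. For liver against eWAT it gave 29, but that fit took single arrays and not RNA samples as replicates. The 29 is therefore not comparable with the main count. Signal over background limits Gsta1 in liver and Sult1e1 and Sult4a1 in eWAT, whose probes were undetected on some arrays of that tissue. The same holds in eWAT for Gsta2, Gstt4, Sult2a8, Sult2b1, Ugt2a3, Ugt2b1, Ugt2b34, Ugt2b35, Ugt2b36 and Ugt3a1. Ugt1a2 was detected on 8 of 8 liver arrays and 0 of 8 eWAT arrays, which limits its difference between tissues.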
